A study of Mus musculus with 21 samples.

Results

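The comparison described here is between 7 mammary tumours labelled stable under BYL719 and 7 tumours labelled as vehicle controls, 14 of the 21 tumours of the series, and it covers every gene of the count table. The members were taken from the sample titles. All tumours came from WAP-Cre/PIK3CA-H1047R mice, in which Cre recombinase under the promoter of a milk protein gene turns on PIK3CA, the catalytic chain of PI3K-alpha, with an activating change in mammary epithelial cells. The vehicle animals received DMSO and the stable tumours came from animals treated with BYL719 (alpelisib, an inhibitor of PI3K-alpha). The remaining 7 tumours, labelled relapse, had the same genotype and drug and enter below only as a spread-sharing group and in values set side by side. The design text of the series calls the treated groups responding and stable, and the sample labels were followed. The labels give no age, dose or collection time, and do not say how a tumour was judged stable.

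PI3K-alpha makes a membrane lipid that recruits AKT. AKT holds FOXO transcription factors outside the nucleus, relieves the TSC complex's brake on mTORC1, and through mTORC1 favours the SREBP factors, which switch on genes of sterol and fatty acid synthesis. FOXO factors are known to drive genes of growth arrest, autophagy and stress resistance, and genes of the insulin and ERBB receptors that lie upstream of PI3K. In mammary epithelium the same pathway carries signals from insulin, IGF1 and neuregulins.

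Total counts lay between 21043399 and 24873844 per vehicle tumour and between 13337848 and 24648463 per stable tumour. Each title also holds a code, shared by up to 3 tumours of a group (3 codes among vehicle and 4 among stable tumours, with none in common). What a code stands for is not stated, and nothing in the labels says that the tumours came from separate animals. The p-values therefore measure only the spread between these tumours. The epithelial genes Epcam (355 to 990 CPM in vehicle and 460 to 942 CPM in stable tumours) and Krt8 (141 to 474 and 121 to 999 CPM) were present in every tumour. CPM is the count of a gene relative to its library's scaled total.

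Vehicle 2, 6 and 7 and stable 1 stood apart from their groups. The first principal component, from the 1000 genes that varied most, held 45.9% of the variance. On it vehicle 2, 6 and 7 lay at 97.8, 99 and 76.7, vehicle 3 at 25.7 and the remaining vehicle tumours between -15.1 and -5.68. Stable 1 lay at 32.5, and the other 6 stable tumours lay between -30.6 and -5.89. Myoepithelial contractile genes were high in vehicle 2, 6 and 7: Cnn1, the calponin of smooth muscle, stood at 852, 808 and 400 CPM there and between 1.22 and 7.32 CPM in the other 11 tumours. The mean log2 CPM of 17 squamous keratinisation genes was 0.19 and 0.34 in vehicle 2 and 6 and 0.79 in stable 1, beside 3.38 to 6.65 in the remaining tumours. In stable 1 whole chromosomes deviated together. Chromosome 15 had 468 genes at a mean log2 CPM of 3 or more, and their median in stable 1 was 0.70 log2 units above the gene's median over the 14 tumours, while the median of the 390 such genes on chromosome 14 was 0.57 log2 units below it and that of the 882 genes on chromosome 2 was 0.32 above. Chromosome 15 was also raised in vehicle 2 (0.44) and vehicle 6 (0.23), and the largest deviation in the remaining tumours was -0.18 (chromosome X in stable 5). DNA copy number was not measured here. The main counts and many of the genes below are therefore also given without vehicle 2, 6 and 7 or without stable 1.

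**Figure D1:**
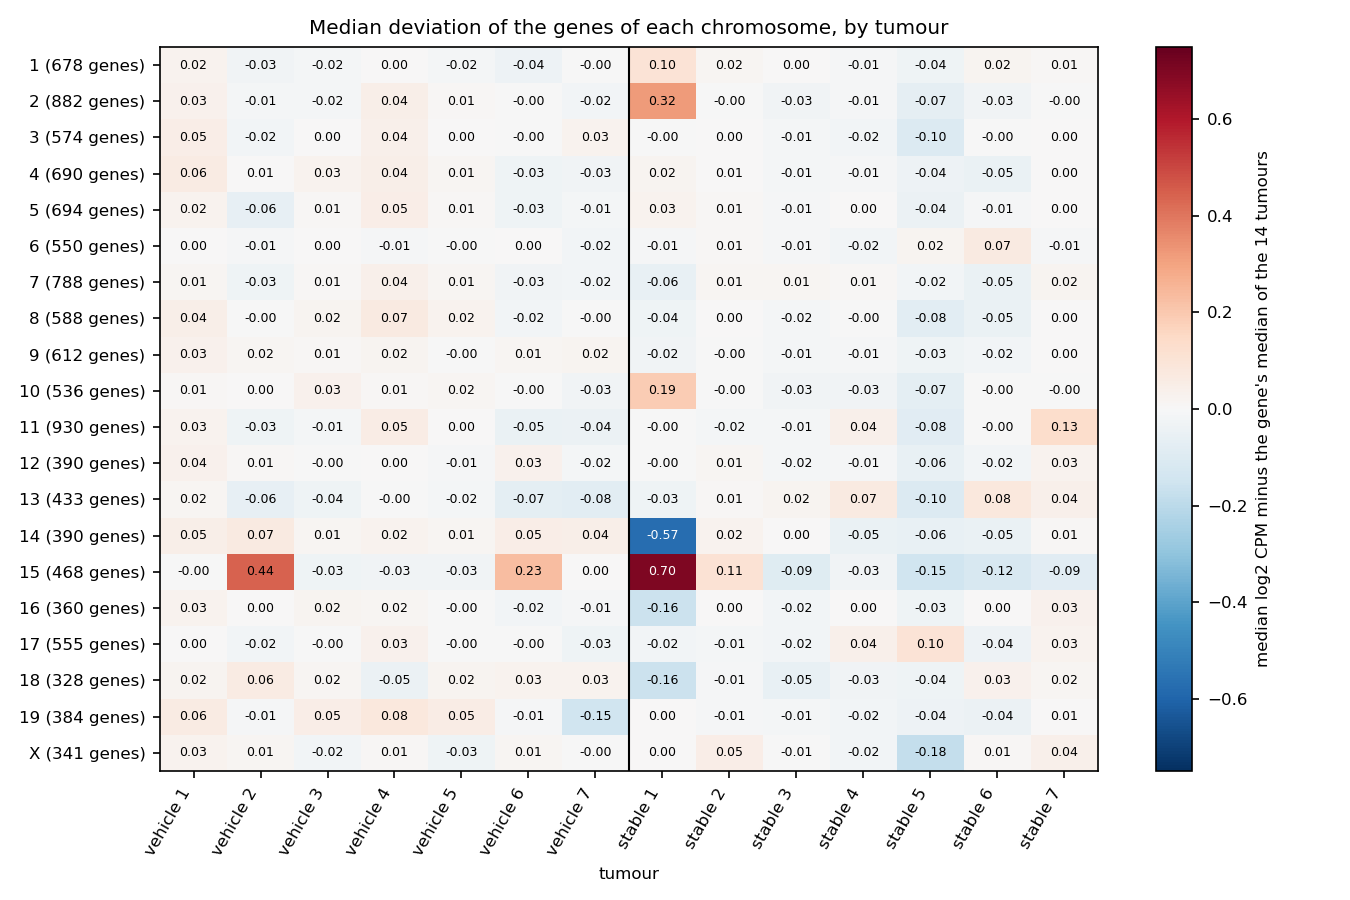
Median deviation of each chromosome's genes (rows; mean log2 CPM of 3 or more) in each of the 14 tumours (columns), as log2 CPM minus the gene's median over the 14 tumours. Stable 1 stands at 0.70 on chromosome 15 and -0.57 on chromosome 14, and vehicle 2 at 0.44 on chromosome 15.

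Of the 15792 genes tested, 1090 were higher and 1288 were lower in stable than in vehicle tumours at an adjusted p under 0.05 (15.1% called, 6.9% higher and 8.16% lower; quasi-likelihood F test of edgeR with Benjamini-Hochberg adjustment). An unadjusted p under 0.05 was reached by 4919 genes. The split between directions depended on the scaling: with upper quartile factors 1294 genes were called higher and 1032 lower. For 64.7% of the genes that were not called, the 95% interval of the fold change lay within 2-fold in both directions. The 7 stable and 7 vehicle values did not overlap for 453 genes (2.87% of those tested), 247 higher and 206 lower.

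Much of the comparison moved with the 3 vehicle tumours. Among the 1288 genes called lower, vehicle 2, 6 and 7 held the 3 highest of the 14 values in 674, and without these tumours 455 genes were called higher (2.83%) and 392 lower (2.44%), 5.27% in all. Of the 2378 calls, 588 were also called without them and 101 changed sign. With counts summed per title code 210 genes were called higher (1.29%) and 382 lower (2.35%), 3.64% in all. With both changes together 0.463% were called higher and 0.598% lower (1.06% in all). A set of 287 genes (1.82% of those tested) was called with the same sign in all 3 fits, 173 higher and 114 lower, and all 287 were called as well when stable 1 was left out together with vehicle 2, 6 and 7 (6.53% of genes higher and 7.2% lower in that fit, 13.7% in all). These genes are called the 287 common genes below.

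**Figure D2:**
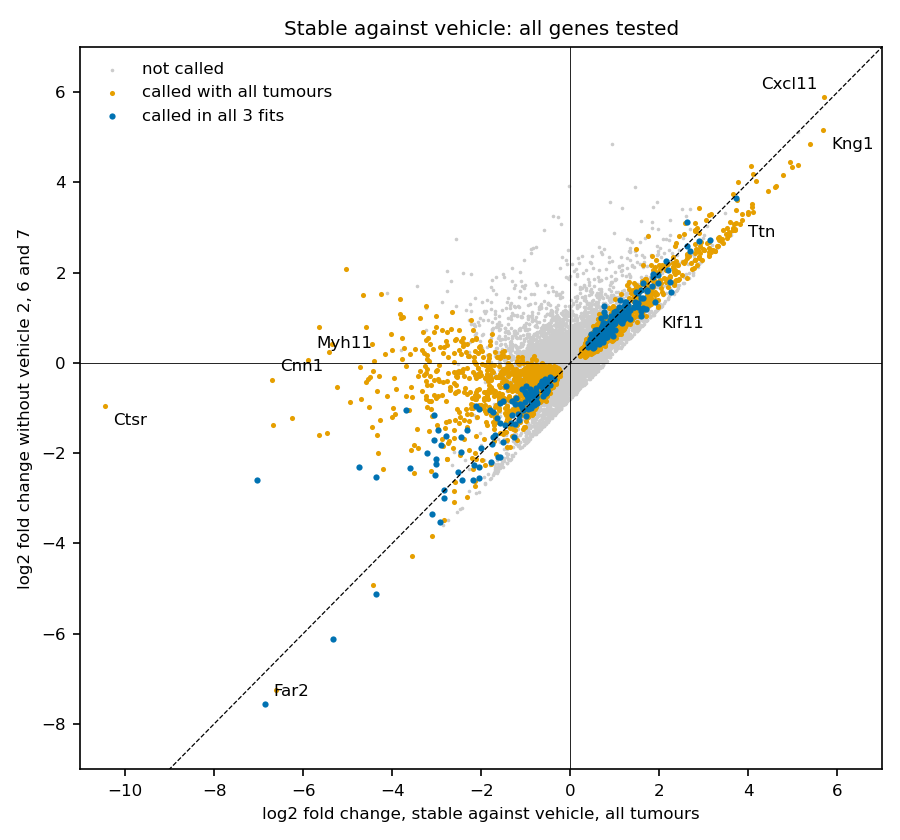
Log2 fold change of stable against vehicle for each gene tested with all tumours (horizontal axis) and without vehicle 2, 6 and 7 (vertical axis); the dashed line marks equal values. Grey points were not called, orange points were called with all tumours, and the 287 blue points were called with 1 sign in all 3 fits; Cnn1, Myh11 and Ctsr lie far to the left, between -0.96 and 0.059 on the vertical axis.

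The common genes that were higher with the lowest p-values had varied functions. Rps6ka5 (chr12:100548439-100725328), the nuclear kinase MSK1 that phosphorylates histone H3 and CREB, ranged from 12.6 to 16.3 CPM in vehicle tumours (median 14.7) and from 29.2 to 37 CPM in stable tumours (median 31.6). Its log2 fold change was 1.16 ± 0.1 (SE, n = 7 per group; adjusted p = 8.55e-07), and the groups were far apart. Klf11 (chr12:24651371-24662782), a Krüppel-like zinc finger repressor, ranged from 13.4 to 25.4 CPM in vehicle (median 17.1) and from 36 to 75.1 CPM in stable tumours (median 52.3), a log2 fold change of 1.58 ± 0.16 (adjusted p = 4.84e-06). Pcmtd2 (chr2:181830159-181857460) rose from 69.8 to 98.1 CPM in vehicle to 162 to 237 CPM in stable tumours, and Zfp874b, a zinc finger gene, from 12.9 to 17.9 to 32.7 to 48.8 CPM. Reads of Zfp874b and its near copy Zfp874a may have been split between them by the counting.

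Terf1, a protein that binds telomere repeats, changed less and had a narrow spread. It lay between 30 and 38 CPM in vehicle and between 55.7 and 62.3 CPM in stable tumours (log2 fold change 0.75 ± 0.071, adjusted p = 2.79e-06). Zfyve1, a FYVE-domain protein of the endoplasmic reticulum that marks sites of autophagosome formation, Spice1, a spindle and centriole protein, Tcp11l2, Mturn and Auh, an enzyme of leucine breakdown, were also among the 12 with the lowest p, with log2 fold changes of 0.97, 1.05, 1.03, 1.63 and 0.83. None of the genes in this and the previous paragraph had overlapping groups.

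Among the common genes that were lower, Gmppb (chr9:108049239-108051923), which makes the GDP-mannose used in glycosylation, ranged from 16.8 to 24 CPM in vehicle tumours (median 18.2) and from 6.87 to 11.7 CPM in stable tumours (median 9.05), and every stable tumour lay below every vehicle tumour. The log2 fold change was -1.07 ± 0.13 (adjusted p = 6.55e-05) and -1.05 without vehicle 2, 6 and 7. Bdh1, a mitochondrial ketone body enzyme, fell by 1.47 log2 units, Higd1a, a mitochondrial hypoxia-induced protein, by 1.57, and Gbf1, an exchange factor of Golgi traffic, by 0.62. Ptpn11, the phosphatase SHP2 that links receptor tyrosine kinases to RAS, was 219 to 270 CPM in vehicle and 139 to 176 CPM in stable tumours, a log2 fold change of -0.52 ± 0.075 (adjusted p = 0.000374). Hras, a RAS GTPase noticed after its values were seen, was 27.4 to 39.8 CPM and 18.5 to 26.1 CPM (log2 fold change -0.58 ± 0.11). Plekhd1 and Hepacam, a cell adhesion protein of glia, had low counts and the largest folds in this set's leading genes, at -4.36 and -3.6, which shrank to -2.52 and -2.33 without vehicle 2, 6 and 7.

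**Figure D3:**
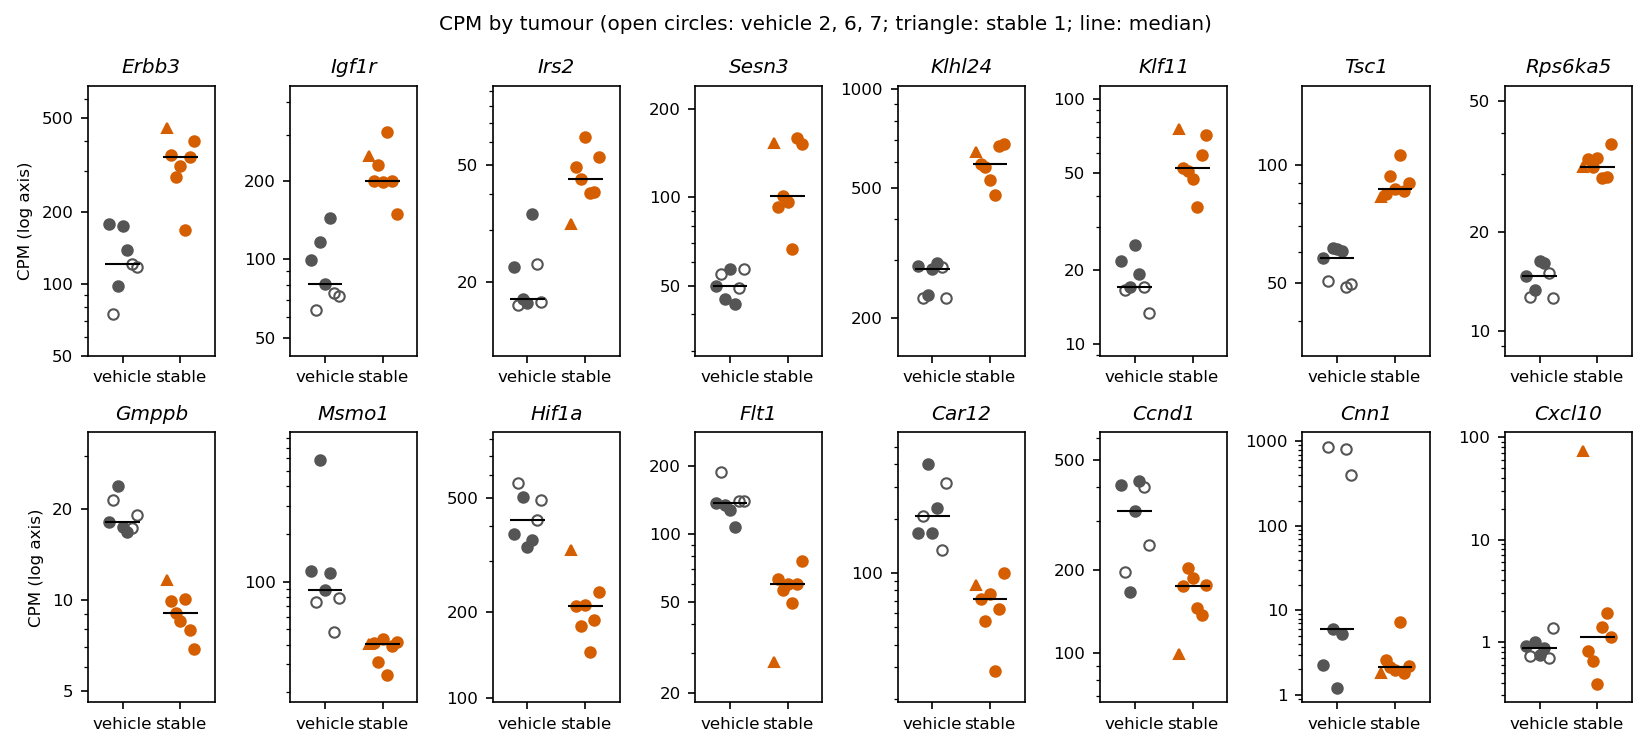
CPM (log axis, own range in each panel) of 16 genes in each tumour, vehicle in grey and stable in orange; open circles are vehicle 2, 6 and 7, the triangle is stable 1 and the line is the group median. Rps6ka5, Klf11, Klhl24 and Gmppb separate the groups, while Cnn1 is high in the open circles and Cxcl10 in the triangle.

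The start regions of the common genes were searched for the core FOXO recognition sequence TGTTTAC, on both strands, in RefSeq windows (GRCm38.p6) from 250 bases before to 50 bases after each annotated start. A window was present for 12222 of the genes tested, and 390 of them (3.19%) held a match. Matches stood in 52 of 841 genes called higher (6.18%), 23 of 979 called lower (2.35%), 16 of 135 common genes that were higher (11.9%) and 1 of 79 that were lower (1.27%, the clock gene Cry1). Genes with several starts have more windows: over the first window alone the shares were 2.56% of all genes, 5.11%, 1.63%, 11.9% and 1.27%. Over all windows, 4 of 17 genes of the list of FOXO factors and targets described below held a match (23.5%). These were Bcl2l11, Sesn1, Trim63 and Txnip, and of the 5 called members with a window only Bcl2l11 held one. Among the receptors and adaptors described below, 0 of 11 genes with a window held a match. These shares were not tested, and a match describes letters in a window, not a bound site.

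The sequences below are those common higher genes whose match, with the bases around it, lay wholly before the start, together with Bcl2l11, the called member of the FOXO list with a match. They show how different the surrounding bases are around 1 shared core. Each is read along the strand that carries the core, which is in capitals.
Pot1a (chr6:25809281-25809341, - strand): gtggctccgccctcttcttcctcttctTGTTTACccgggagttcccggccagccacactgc
Cnnm3 (chr1:36511726-36511786, + strand): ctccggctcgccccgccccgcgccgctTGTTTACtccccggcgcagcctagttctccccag
Xndc1 (chr7:102065339-102065399, - strand): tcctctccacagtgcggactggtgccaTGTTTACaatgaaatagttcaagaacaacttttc
Tmem140 (chr6:34863003-34863063, + strand): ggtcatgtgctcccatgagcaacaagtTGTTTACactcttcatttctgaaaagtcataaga
Ndufaf1 (chr2:119662872-119662932, - strand): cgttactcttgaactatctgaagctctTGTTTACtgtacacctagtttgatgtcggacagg
Cep126 (chr9:8134645-8134696, - strand): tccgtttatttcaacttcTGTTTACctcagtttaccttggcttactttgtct
Bcl2l11 (chr2:128125788-128125844, - strand): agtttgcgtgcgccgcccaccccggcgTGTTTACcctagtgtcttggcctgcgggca

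The genes with these sequences differed modestly in size of change. Pot1a, which protects the single-stranded end of telomeres, was 16.3 to 22.2 CPM in vehicle and 31.8 to 61.4 CPM in stable tumours (log2 fold change 1.04 ± 0.14, adjusted p = 0.000136); it has a near copy, Pot1b, so that its count is uncertain. Tmem140 rose by 1.02 ± 0.18 log2 units, Cnnm3, a magnesium transport protein, by 0.81 ± 0.15, Cep126 by 0.7 ± 0.16, Xndc1 by 0.69 ± 0.11 and Ndufaf1, an assembly factor of respiratory complex I, by 0.58 ± 0.11. Both members of the pair Zfp874a and Zfp874b held the core after their starts.

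Several receptors and adaptors upstream of PI3K were higher. Of 15 tested genes for insulin, IGF1 and ERBB receptors and their adaptors, 6 rose and 0 fell (against 6.9% higher and 8.16% lower over all genes), 14 had a positive log2 fold change, and the median was 0.36 beside -0.0048 over all genes. Without vehicle 2, 6 and 7, 5 rose, with a median of 0.42, and with counts summed per code 4 rose. With both changes together 0 passed the test with edgeR (7 at an unadjusted p under 0.05; DESeq2 called 6 with all tumours), and the adjusted p of Erbb3, Igf1r and Irs2 was 0.0707, 0.127 and 0.136. The list's mean log2 CPM lay between 5.65 and 5.96 in vehicle and between 6.15 and 6.48 in stable tumours, without overlap.

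Erbb3 (chr10:128567523-128589635), the neuregulin receptor that couples to PI3K most directly, ranged from 74.9 to 179 CPM in vehicle tumours (median 121) and from 168 to 453 CPM in stable tumours (median 343). Stable 5, at 168 CPM, overlapped with vehicle 1 (179 CPM) and vehicle 4 (176 CPM), and the other 6 stable tumours lay above every vehicle tumour. The log2 fold change was 1.35 ± 0.2 (adjusted p = 0.000614). Igf1r, the IGF1 receptor, did not overlap between the groups, at 63.9 to 144 CPM in vehicle and 149 to 308 CPM in stable tumours (log2 fold change 1.23 ± 0.21, adjusted p = 0.0014). Insr, the insulin receptor, rose less, from a median of 150 to a median of 215 CPM (log2 fold change 0.49 ± 0.11, adjusted p = 0.00929, and 0.0523 after summing counts by code). Irs2, an adaptor that brings PI3K to both receptors, went from a median of 17.5 to a median of 44.8 CPM (log2 fold change 1.13 ± 0.2, adjusted p = 0.0014), with stable 1 (31.4 CPM) below vehicle 5 (34.1 CPM). Grb7, an adaptor of ERBB receptors, rose by 1.51 ± 0.24 log2 units with no overlap.

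A part of the FOXO target genes was also higher. Of the 21 genes in the list of FOXO factors and their known targets, 7 rose and 0 fell (33.3% called, beside 15.1% over all genes). In 14 the log2 fold change was positive, and the median was 0.58. The mean log2 CPM of the list was 5.03 to 5.57 in vehicle and 5.53 to 6.11 in stable tumours. These ranges overlapped through vehicle 6 (5.57) and stable 1 (5.53). Without vehicle 2, 6 and 7 the count was 8 higher with a median of 0.67. With counts summed per title code 6 rose, and with both changes together 4 rose and 0 fell. Klhl24, a ubiquitin ligase adaptor, ranged from 229 to 294 CPM in vehicle and from 476 to 682 CPM in stable tumours (log2 fold change 1.18 ± 0.13, adjusted p = 1.62e-05). Sesn3, a sestrin that restrains mTORC1, ranged from 43.3 to 57.1 CPM and from 66.5 to 159 CPM (log2 fold change 1.2 ± 0.18, adjusted p = 0.000492). The groups did not overlap for either gene.

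The cell cycle brakes of the list moved the same way. Ccng2, an atypical cyclin linked to arrest, went from a median of 61 to a median of 113 CPM (log2 fold change 1.17 ± 0.19), Gadd45a, a growth arrest and stress gene, from 15.1 to 32.9 CPM (1.43 ± 0.26), and Cdkn1b, the CDK inhibitor p27, from 128 to 200 CPM (0.71 ± 0.13). With both changes together edgeR called none of them (adjusted p = 0.0729, 0.097 and 0.0707), nor Foxo4 (adjusted p = 0.0554). In Cdkn1b stable 1 lay apart from its group at 125 CPM, inside the vehicle range. Bcl2l11, the death gene BIM, rose by 0.72 ± 0.19 log2 units with all tumours (adjusted p = 0.0191) and was not called without vehicle 2, 6 and 7 (0.53, adjusted p = 0.144). Of the factors themselves Foxo4 rose by 0.58 ± 0.1, whereas Foxo1 (log2 fold change -0.45, 95% interval -0.89 to 0.0012) and Foxo3 (-0.012, -0.3 to 0.27) did not pass the test. Txnip, a thioredoxin inhibitor, was not called with all tumours (0.81, adjusted p = 0.121) but was called without vehicle 2, 6 and 7 (1.88, adjusted p = 0.00116): those 3 tumours held 408 to 746 CPM, the other vehicle tumours 114 to 177 CPM and the stable tumours 356 to 799 CPM.

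Genes of PI3K itself changed less uniformly. Of 18 subunits, inhibitors and lipid phosphatases, 1 rose and 3 fell with all tumours (22.2% called, beside 15.1% over all genes). None of the 4 was among the common genes, and 2 rose and 0 fell without vehicle 2, 6 and 7. Inpp5k, an inositol polyphosphate phosphatase, went from a median of 42.4 to a median of 73.4 CPM (log2 fold change 0.7 ± 0.13). Pik3r2, a regulatory subunit (-0.82 ± 0.17), was lower with all tumours and was not called without vehicle 2, 6 and 7 (-0.43, adjusted p = 0.0775). Pik3ca, whose count may include reads of the transgene, ranged from 359 to 623 CPM in vehicle and from 253 to 1380 CPM in stable tumours and was not called (0.67 ± 0.28, adjusted p = 0.115). Pik3ip1, an inhibitor of PI3K, was not called with all tumours (0.53, adjusted p = 0.383) and was called without vehicle 2, 6 and 7 (1.71, adjusted p = 0.00938), in which it stood at 20.9 to 37.3 CPM against 5.85 to 9.99 CPM in the other vehicle tumours.

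Among 26 AKT and mTOR kinases and regulators, 4 rose and 3 fell (26.9% called, beside 15.1% over all genes), with a median log2 fold change of 0.074. Tsc1, a subunit of the TSC complex that holds mTORC1 back, was 48.9 to 61.6 CPM in vehicle and 83.1 to 106 CPM in stable tumours (log2 fold change 0.69 ± 0.08, adjusted p = 3.5e-05), with no overlap. Rictor, the defining subunit of mTORC2, rose by 0.68 ± 0.14; it lies on chromosome 15, stable 1 held the highest value (563 CPM), and without stable 1 the log2 fold change was 0.53 (adjusted p = 0.00257). Sesn2, a sestrin known as a stress and amino acid sensor, was lower (-0.82 ± 0.17), the opposite direction to Sesn3, and Rragc, a GTPase that brings mTORC1 to the lysosome, fell by 0.46 ± 0.1.

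In the RAS and ERK lists few genes passed the test. Of 12 RAS GTPase-activating proteins and SPRED genes 1 rose (8.33%) and 0 fell, and of 16 ERK output genes 1 rose (6.25%) and 0 fell, shares below the 15.1% called over all genes. Without vehicle 2, 6 and 7 edgeR called 0 in either list (1 and 2 at an unadjusted p under 0.05). The first was Rasa1 (0.34 ± 0.11, adjusted p = 0.0367), whose call was lost on leaving out any 1 of stable 1, 2, 3, 6 and 7 and vehicle 1, 2, 3, 4 and 6 (adjusted p up to 0.0789). The second was Spry1, a feedback inhibitor of receptor signalling (0.81 ± 0.24, adjusted p = 0.0289), whose call was lost without stable 1 or without vehicle 7 (adjusted p up to 0.0567). Nf1, the RAS GTPase-activating protein named in the series title, ranged from 247 to 460 CPM in vehicle and from 253 to 597 CPM in stable tumours. Its log2 fold change was -0.033 (95% interval -0.42 to 0.35, adjusted p = 0.923), and the highest vehicle values were those of vehicle 2, 6 and 7 (368 to 460 CPM). Without these 3 its log2 fold change was 0.31 (adjusted p = 0.367), and without stable 1 it was -0.24 (adjusted p = 0.225). Nf1 stood at 597 CPM in stable 1 and at 253 to 331 CPM in the other stable tumours. Vehicle 1, 3, 4 and 5 held 247 to 284 CPM. Dusp6, a phosphatase switched on by ERK, was not called either (0.63, 95% interval -0.28 to 1.54). Stable 1 stood at 535 CPM for it, and the other stable tumours at 62.8 to 106 CPM, within the vehicle range of 59.6 to 158 CPM.

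**Figure D4:**
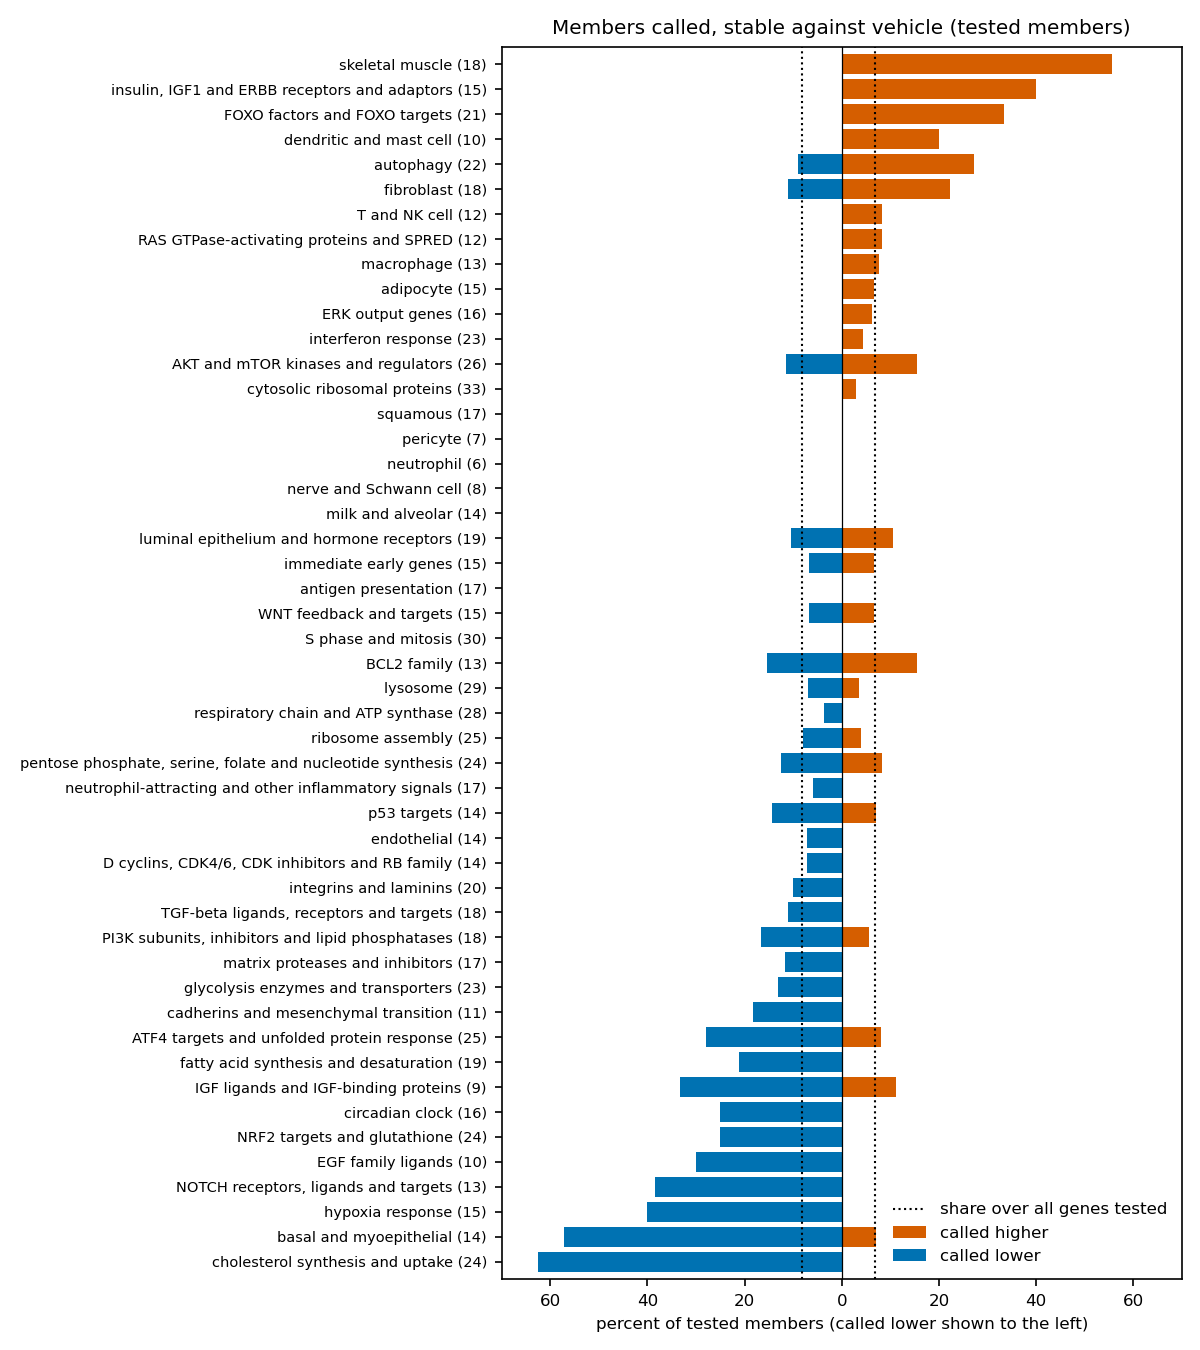
Percent of the tested members of each list called higher (orange, to the right) or lower (blue, to the left) in stable against vehicle tumours, with the number tested in brackets; dotted lines mark the shares over all genes tested, 6.9% higher and 8.16% lower. Cholesterol genes reach 62.5% lower, receptors and adaptors 40% higher and skeletal muscle markers 55.6% higher.

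Genes of cholesterol synthesis and uptake formed the list with the most members lower. All 24 tested members had a negative log2 fold change, 15 fell (62.5%, beside 8.16% lower over all genes) and 0 rose, and the median was -0.83. Without vehicle 2, 6 and 7, 15 fell with a median of -0.95, and with counts summed per title code 6 fell with a median of -0.86. With both changes together 11 fell and 0 rose, beside 0.598% lower over all genes. The list's mean log2 CPM was 6.51 in vehicle 3 and 4.57 to 5.41 in the other vehicle tumours. It was 3.97 to 4.79 in stable tumours, so that the groups overlapped. Fdft1, Msmo1, Sc5d and Hmgcs1 were among the common genes. Fdft1, squalene synthase, was 37.2 to 74.9 CPM in vehicle and 22.3 to 30.8 CPM in stable tumours (log2 fold change -0.88 ± 0.13, adjusted p = 0.000631). Sc5d, a late sterol desaturase, was 53.1 to 106 CPM and 34.7 to 52.2 CPM (-0.8 ± 0.14). The groups did not overlap for either.

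Vehicle 3 held the highest values of Fdft1, Sc5d, Msmo1, Hmgcs1 and Mvk. Without vehicle 3 the log2 fold changes of Fdft1 and Sc5d were -0.74 and -0.67 (adjusted p = 0.000437 and 0.00236). Msmo1, a methylsterol oxidase, stood at 581 CPM in vehicle 3, and its groups did not overlap (-2.06 ± 0.42, adjusted p = 0.00395; -1.2 without vehicle 3, adjusted p = 0.000833). Hmgcs1, an early enzyme of the pathway, stood at 565 CPM in vehicle 3, with a stable range of 54.9 to 109 CPM (-1.27 ± 0.31, adjusted p = 0.0111; -0.81 without vehicle 3, adjusted p = 0.0151). Mvk, mevalonate kinase, fell by 0.69 ± 0.15 (-0.6 without vehicle 3, adjusted p = 0.0112) and missed the threshold after summing counts by code (adjusted p = 0.0514).

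Of the 17 cholesterol genes with a promoter window, Hmgcs1 alone held the sterol response sequence TCACNCCAC, which 171 of all 12222 genes with a window held (1.4%; both strands). It is shown because Hmgcs1 is a common gene; the capitals mark the match.
Hmgcs1 (chr13:119690187-119690249, + strand): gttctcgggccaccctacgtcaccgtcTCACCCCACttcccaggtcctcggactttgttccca

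Fewer calls were made among fatty acid genes, a difference from the sterol genes that was not tested. Of 19 members 4 fell and 0 rose (21.1% called, beside 15.1% over all genes, median -0.5). Without vehicle 2, 6 and 7, 2 fell, and with summed counts 0 fell. Scd2, a desaturase, was 897 to 1878 CPM in vehicle and 401 to 838 CPM in stable tumours with no overlap (log2 fold change -0.95 ± 0.19, adjusted p = 0.00318; 0.0538 with summed counts). Elovl6, an elongase, stood at 2300 CPM in vehicle 3 and between 39.2 and 166 CPM in the remaining 6 controls, and its log2 fold change of -2.84 (adjusted p = 0.0364) became -0.27 (adjusted p = 0.708) without vehicle 3. The call was also lost on leaving out any 1 of stable 2 to 7. Far2, which makes fatty alcohols, was likewise high in vehicle 3 (1164 CPM) and vehicle 7 (63.6 CPM), and lay at 1.06 to 4.48 CPM in all other tumours (log2 fold change -6.85, and -3.01 without vehicle 3). Fasn, the fatty acid synthase, was not called (-0.11, 95% interval -1.05 to 0.83).

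Several hypoxia genes were lower. Of 15 members 6 fell and 0 rose (40% called, beside 15.1% over all genes), with a median of -0.61. Without vehicle 2, 6 and 7, 4 fell (median -0.74). Hif1a (chr12:73901324-73947554), the oxygen-regulated transcription factor, ranged from 336 to 563 CPM in vehicle (median 418) and from 145 to 329 CPM in stable tumours (median 209), a log2 fold change of -1.02 ± 0.16 (adjusted p = 0.000697) with no overlap. Car12, a carbonic anhydrase at the cell surface, was 134 to 399 CPM and 28.8 to 99.5 CPM (-1.75 ± 0.29, adjusted p = 0.000958), again with no overlap. Egln1, the prolyl hydroxylase that marks HIF1A for breakdown, fell by 0.61 ± 0.14. Vegfa, the vascular growth factor, fell by 1.1 ± 0.31 (adjusted p = 0.0232) but missed the threshold without vehicle 2, 6 and 7 (-1.04, adjusted p = 0.0665). Flt1, a VEGF receptor, went from 107 to 187 CPM to 27.2 to 76.5 CPM (-1.3 ± 0.2, adjusted p = 0.000632). It was the 1 of 14 endothelial markers that was called (7.14%, beside 8.16% lower over all genes). Of 23 glycolysis genes 3 fell (Pfkfb3, Slc2a1 and Pfkp; 13%) and 0 rose, with 20 negative and a median of -0.36. Hk2, a hexokinase, was not called with all tumours (-0.74, adjusted p = 0.084) and was called without vehicle 2, 6 and 7 (-1.17, adjusted p = 0.0039).

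Autophagy genes went in both directions. Of 22 members 6 rose and 2 fell (36.4% called, beside 15.1% over all genes), with a median of 0.058. Without vehicle 2, 6 and 7, 5 rose and 0 fell. Atg14, the subunit that directs the lipid kinase VPS34 to autophagy, was 13 to 19.4 CPM in vehicle and 23.9 to 33.4 CPM in stable tumours (log2 fold change 0.82 ± 0.11, adjusted p = 0.000176), although chromosome 14, on which it lies, was low in stable 1 (27.2 CPM there). Gabarapl1, an ATG8-family protein, rose by 0.6 ± 0.13. Of initiation genes noticed after their values were seen, Atg13 rose by 0.78 ± 0.15 and Rb1cc1, the scaffold FIP200, by 0.63 ± 0.1, both without overlap. The lysosome list gave 1 higher (Npc2) and 2 lower (Neu1 and Tfeb) of 29, or 10.3% called, and 0 with edgeR without vehicle 2, 6 and 7 (4 at an unadjusted p under 0.05). Tfeb, the master regulator of lysosomal genes, was lower with all tumours (-0.79 ± 0.21, adjusted p = 0.0175) and not called without vehicle 2, 6 and 7 (adjusted p = 0.122).

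Genes of proliferation were rarely called. Of 30 genes of S phase and mitosis 0 passed the test with edgeR in either direction, 2 had an unadjusted p under 0.05 and 1 was called higher by DESeq2. Their median log2 fold change of 0.43 became -0.0069 without vehicle 2, 6 and 7, in which Mki67, the proliferation marker, stood at 151 to 387 CPM against 798 to 1098 CPM in the other vehicle and 354 to 1189 CPM in stable tumours. The list's mean log2 CPM was 6.18 in stable 1 and 3.74 to 5.27 in the other stable tumours. Its median log2 fold change was 0.10 without stable 1. Without stable 1 and vehicle 2, 6 and 7 it was -0.36, with 1 gene called lower and 0 higher. Mki67 itself had a log2 fold change of 0.53 (95% interval -0.22 to 1.29, adjusted p = 0.327). Ccnd1, cyclin D1, was the 1 called gene of 14 D cyclins, kinases, inhibitors and RB proteins (7.14%, beside 15.1% called over all genes). It was 166 to 419 CPM in vehicle and 99.5 to 204 CPM in stable tumours (-0.94 ± 0.21, adjusted p = 0.00823). Of 13 BCL2-family genes 2 rose and 2 fell (30.8% called). Bmf, a death gene of the family, was 11.1 to 57.7 CPM in vehicle and 60.8 to 153 CPM in stable tumours (1.64 ± 0.33, adjusted p = 0.00361), with no overlap, and Bbc3, the gene of PUMA, rose by 0.64 ± 0.17 (0.57, adjusted p = 0.0766 without vehicle 2, 6 and 7).

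Several further lists lost calls without vehicle 2, 6 and 7, as did the whole table, in which 588 of 2378 calls were also made without them (15.1% against 5.27% called). With stable 1 left out as well, 13.7% of all genes were called. In that fit 4 NRF2 and glutathione genes, 5 ATF4 and unfolded protein response genes and 4 circadian genes were lower. NOTCH genes and EGF-family ligands had 1 lower each there, and 0 were higher in any of these lists. The counts below are without vehicle 2, 6 and 7 only. NRF2 and glutathione genes gave 6 lower of 24 with all tumours and 1 lower without those 3. Nqo1, a quinone reductase, fell by 1.7 ± 0.35 (adjusted p = 0.00457) and was not called without them (-0.97, adjusted p = 0.0886). ATF4 and unfolded protein response genes gave 2 higher and 7 lower of 25, and 0 of 25 with edgeR without those tumours (5 at an unadjusted p under 0.05). Herpud1, a gene of protein breakdown at the endoplasmic reticulum, fell by 0.85 ± 0.19 (adjusted p = 0.00622) and was likewise not called without them (-0.56, adjusted p = 0.0665). NOTCH genes gave 5 lower of 13 and 1 without them: Hey2, a NOTCH target repressor, fell by 3.22 ± 0.59 and by 1.99 (adjusted p = 0.0389), and Notch1 fell by 0.65 ± 0.14 with all tumours but was not called without the 3 (-0.41, adjusted p = 0.0937). Circadian genes gave 4 lower of 16 and 1 without them. Cry1, the repressor of the clock, held in both, at 18.5 to 29.2 CPM in vehicle and 8.95 to 15.7 CPM in stable tumours (-0.78 ± 0.14). EGF-family ligands gave 3 lower of 10 and 1 without them; Nrg1, a ligand of ERBB3, stood at 30 to 51.7 CPM in vehicle 2, 6 and 7, and its log2 fold change of -2.12 ± 0.51 became -0.65 (adjusted p = 0.356). IGF ligands and binding proteins gave 1 higher and 3 lower of 9 (median -0.075), and 2 higher and 0 lower without those tumours (median 0.54). Igf2, a growth factor, went from a median of 3.31 to a median of 10.7 CPM (1.93 ± 0.5) and remained called without those tumours (2.28, adjusted p = 0.0327); Igfbp3, a binding protein, fell by 1.65 ± 0.33 with no overlap and was not called without them (-0.96, adjusted p = 0.0592).

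Markers of other cell types moved with parts of these results. In bulk tumours fewer cells of a type and less RNA per cell cannot be told apart. Of 14 basal and myoepithelial markers 1 rose and 8 fell (64.3% called, beside 15.1% over all genes, median -3.23). Without vehicle 2, 6 and 7, 0 rose and 1 fell (median -0.012). The list's mean log2 CPM in vehicle 2, 6 and 7 was up to 8.94; it was 4.63 to 6.27 in the other vehicle tumours and 3.77 to 6.06 in the stable tumours. Myh11, smooth muscle myosin, stood at 4707 to 9056 CPM in the 3 tumours, at 13.5 to 78.8 CPM in the remaining 4 controls and at 6.65 to 170 CPM in stable tumours, and its log2 fold change went from -5.88 to 0.059. Acta2, smooth muscle actin, and Mylk, its myosin kinase, went from -4.5 and -4.72 to -0.31 and -0.083. The basal keratins Krt5 (-1.23, adjusted p = 0.0678) and Krt14 (-0.8, adjusted p = 0.333) were not called with all tumours. Krt5 was called lower without stable 1 (-1.02, adjusted p = 0.0287), and Krt14 was not (-0.62, adjusted p = 0.433). In vehicle 2, 6 and 7 Krt14 was 85 to 342 CPM against 771 to 2507 CPM in the other vehicle tumours. Ctsr, a cathepsin gene known from placenta, had the lowest log2 fold change of all, -10.45, and stood at 117, 2298 and 1686 CPM in vehicle 2, 6 and 7 and at no more than 2.32 CPM elsewhere. Agt, Fgb and Casq2, genes of angiotensinogen, a fibrinogen chain and a calcium-binding muscle protein, had the same pattern, with log2 fold changes of -6.24, -6.67 and -5.64 that became -1.22, -1.37 and -1.59 and were not called without the 3 tumours.

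Skeletal muscle markers were higher in stable tumours with all tumours in the fit, 10 of 18 (55.6%, beside 6.9% higher over all genes, median 3.18). However, edgeR called 0 without vehicle 2, 6 and 7 (median 2.52, with 11 at an unadjusted p under 0.05). It also called 0 with summed counts (13 at an unadjusted p under 0.05). DESeq2 called 13 of them with all tumours. Ttn, the titin gene, ranged from 15.5 to 725 CPM in vehicle and from 223 to 13493 CPM in stable tumours, with stable 5 the highest (3.7 ± 1.15, adjusted p = 0.0357). Its call was lost on leaving out any 1 of stable 4 and 5 and vehicle 1, 2, 3, 6 and 7, with adjusted p up to 0.111. The part of muscle RNA in the differences of other genes was not tested. Of 18 fibroblast markers 4 rose and 2 fell with all tumours (33.3% called, beside 15.1% over all genes, median 0.50). Without vehicle 2, 6 and 7, 1 rose and 0 fell (median 1.16, 10 at an unadjusted p under 0.05). With stable 1 left out as well, 7 rose and 0 fell (median 1.26). Mfap5, a microfibril protein, did not overlap, at 3.13 to 7.24 CPM and 9.74 to 33.3 CPM (1.83 ± 0.31, adjusted p = 0.00118). Thy1, a surface protein of fibroblasts and T cells, rose by 1.56 ± 0.37 (1.31, adjusted p = 0.0856 without vehicle 2, 6 and 7). Luminal markers gave 2 higher (Kit and Tnfsf11) and 2 lower (Cited1 and Foxa1) of 19 (21.1% called, beside 15.1% over all genes). They gave 1 higher and 0 lower without vehicle 2, 6 and 7. Macrophage markers gave 1 higher of 13 (Mertk, 7.69%), and T and NK cell markers 1 higher of 12 (Eomes, 8.33%), beside 6.9% higher over all genes. Without those tumours edgeR called 0 in both lists (2 and 3 at an unadjusted p under 0.05). Milk and alveolar markers gave 0 of 14 with edgeR, 5 at an unadjusted p under 0.05 and 3 higher with DESeq2.

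**Figure D5:**
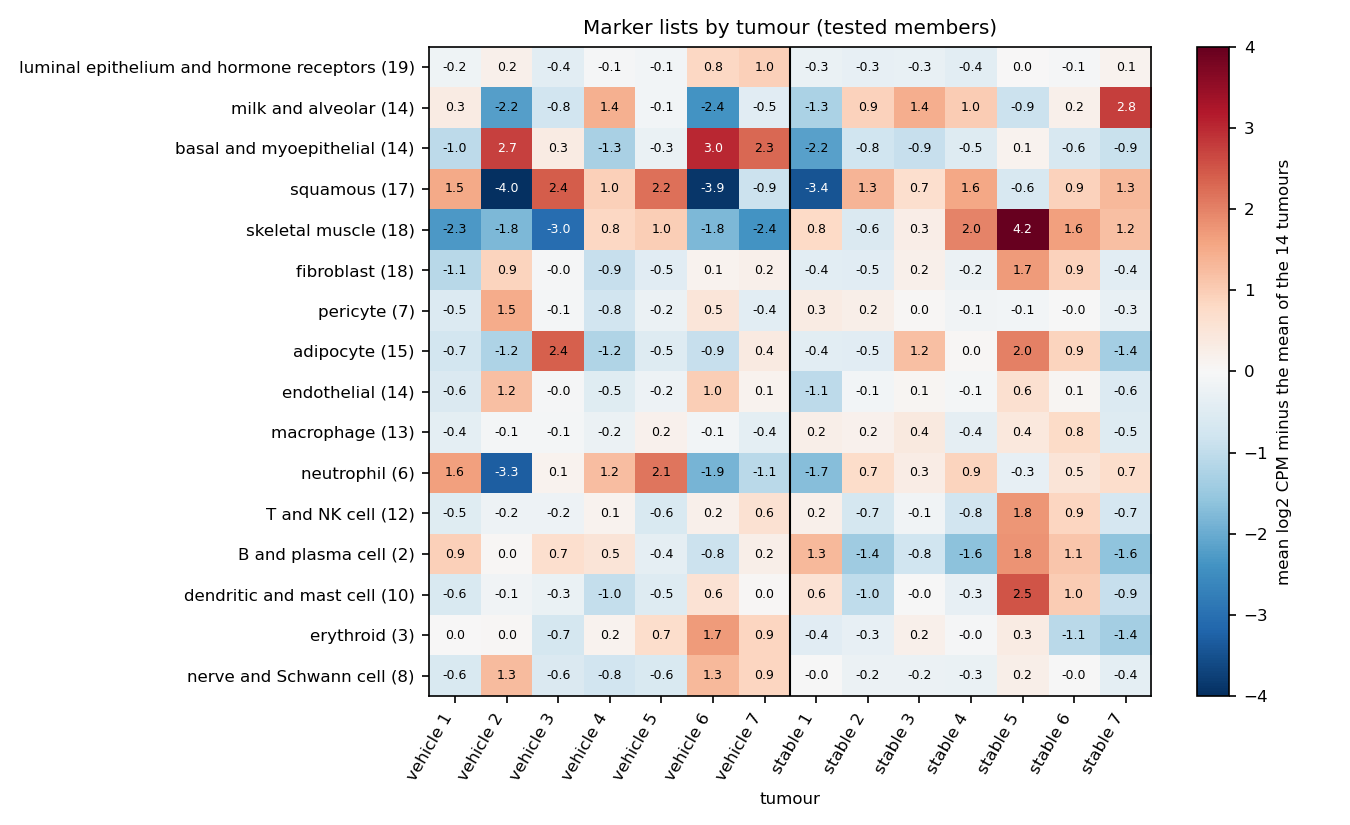
Mean log2 CPM of each marker list (number of tested members in brackets) in each tumour, minus the list's mean over the 14 tumours. Basal and myoepithelial markers stand at 2.7, 3.0 and 2.3 in vehicle 2, 6 and 7, squamous markers are low in vehicle 2 and 6 and stable 1, and skeletal muscle markers reach 4.2 in stable 5.

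Several of the largest increases rested on stable 1. Stable 1 held the highest of the 14 values in 353 of the 1090 genes called higher, and 104 of these were not called without it. Cxcl11, Cxcl10 and Cxcl9, interferon-induced chemokines that attract T cells, stood at 127, 74.1 and 200 CPM in stable 1. In the other stable tumours Cxcl11 reached no more than 0.955 CPM and Cxcl10 no more than 1.91 CPM. Their log2 fold changes of 5.69, 3.66 and 4.05 became 0.36, 0.21 and 1.49 without stable 1, with adjusted p of 0.614, 0.762 and 0.172. Trib3, a stress-induced pseudokinase that binds AKT, stood at 138 CPM in stable 1 and at 4.92 to 8.29 CPM in the others (2.31, and 0.33 with adjusted p = 0.276 without it). Its call was also lost without vehicle 2, 6 or 7 singly. Kng1 and Kng2, near copies that encode kininogens and whose reads may be split, stood at 73.5 and 131 CPM; without stable 1, Kng2 remained called at 2.09 (adjusted p = 0.0265) and Kng1 missed the threshold at 1.95 (adjusted p = 0.0509). Mageb16, a germline gene of the X chromosome, stood at 32 CPM and remained called at 2.57 (adjusted p = 0.0166). Without vehicle 2, 6 and 7 none of these 7 genes was called (adjusted p 0.0662 to 0.156). Leaving out stable 1 raised the number of calls over all genes to 3272 (20.6%; 9.03% higher and 11.5% lower).

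Some gene groups were noticed in the ranked list and so chosen after their values were seen. Their shares are to be read beside 6.9% higher and 8.16% lower over all genes, and 2.83% and 2.44% without vehicle 2, 6 and 7. Of 363 zinc finger genes with a Zfp symbol 67 rose and 11 fell (21.5% called beside 15.1% over all genes, median 0.15), and 32 rose and 2 fell without vehicle 2, 6 and 7. The list's mean log2 CPM was 3.68 in stable 1, below every vehicle tumour (3.89 to 4.17). It was 4.13 to 4.33 in the other stable tumours and 4.12 to 4.17 in vehicle 2, 6 and 7, which overlap. Many of these zinc finger genes are near copies, so that single counts are uncertain. Of 37 centrosomal genes with a Cep symbol 12 rose and 0 fell (median 0.25), and 6 rose without vehicle 2, 6 and 7. Among the 12 was Cep44 (0.93 ± 0.14). Pcnt, the centrosomal scaffold pericentrin, rose by 0.53 ± 0.081. Of 10 telomere genes 4 rose (Terf1, Pot1a, Pot1b and Terc) and 1 fell (Terf2ip), and 4 rose and 0 fell without those tumours. Pot1a and Pot1b are near copies. Libraries were made from polyadenylated RNA, and how well they capture Terc, the telomerase RNA, was not tested. Of 16 genes of the COPII coat and its exit sites, where secretory cargo leaves the endoplasmic reticulum, 1 rose and 5 fell. Without vehicle 2, 6 and 7, 0 rose and 5 fell. Sec16a, the scaffold of these sites, was 195 to 233 CPM in vehicle and 160 to 176 CPM in stable tumours (-0.36 ± 0.058, adjusted p = 0.000802), and Sec31a, a coat subunit, fell by 0.46 ± 0.1, both without overlap. Of 19 HSP70-type chaperones and BAG co-chaperones 6 fell and 0 rose, and 4 fell without vehicle 2, 6 and 7. Hspa1a and Hspa1b, near copies of inducible HSP70, fell by 1.74 ± 0.31 and 1.57 ± 0.32, and Bag3, their co-chaperone in protein clearance, by 1.21 ± 0.22, all without overlap. Without vehicle 2, 6 and 7 the 3 values were -1.08, -0.89 and -0.77 (adjusted p = 0.0235, 0.0484 and 0.0343), and with summing as well the adjusted p was 0.0841, 0.141 and 0.0551. Vehicle 2 held the highest values of Hspa1a and Hspa1b, 238 and 331 CPM.

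The relapse tumours were compared with the same vehicle tumours, so that the 2 comparisons share their controls and are only set side by side. Against vehicle, 856 genes were higher (5.42%) and 916 lower (5.8%) in relapse (11.2% called). Receptors and adaptors gave 6 higher and 0 lower of 15 in each treated group, FOXO genes 7 and 0 of 21 in stable and 8 and 1 in relapse, and cholesterol genes 0 and 15 of 24 in stable and 0 and 12 in relapse. The log2 fold changes in stable and relapse were 1.35 and 0.95 for Erbb3, 1.16 and 0.85 for Rps6ka5, -1.07 and -0.76 for Gmppb, and -1.02 and -0.93 for Hif1a. Tested directly, no gene of 15792 differed between relapse and stable tumours with edgeR (751 had an unadjusted p under 0.05), and 6 did with DESeq2. Relapse and stable tumours share 2 title codes, which this test does not take into account.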

How the data were processed

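RNA of 21 tumours was measured by sequencing of polyadenylated RNA. Per the labels' protocols, frozen tumours were ground, and stranded mRNA libraries were sequenced as single-end reads. A single table of raw gene counts was deposited by the authors, whole numbers without normalization. The submitters' processing notes name the build mm10 and 4 tools, edgeR, Picard 2.9.2, SAMtools 1.3.1 and STAR 2.5.2a. The sources used here do not give their roles, the annotation, the strand setting or how reads matching several genes were handled. Reads of near copies, overlapping genes and antisense genes can therefore be split or shared. An extra leading cell in 10202 of the 24028 rows was passed over by reading each row from its end.

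Counts were filtered with filterByExpr by group (15792 genes kept), scaled with TMM factors and fitted with edgeR 4.0.16 under R 4.3.3 (quasi-likelihood F test). All 21 tumours entered, which share 1 estimate of the spread, with no covariates. The contrast was stable minus vehicle, Benjamini-Hochberg adjustment ran over all genes tested, and the words called, rose and fell mean an adjusted p under 0.05. Values are CPM from TMM-scaled totals; list levels and the principal component use log2 CPM with a prior count of 2. The standard error is the log2 fold change divided by the square root of F. No 2 tumours of a group agreed within sampling noise (chi-square per degree of freedom at least 14.8). The test was tried on simulated counts.

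The comparison, the 35 gene lists, the 16 marker lists and the rules were chosen with earlier results of these data known. Genes named by rule are fixed genes, the 12 largest changes in each direction at a mean log2 CPM of at least 1, the 12 lowest p-values in each direction among the common genes, up to 5 members of each list with at least 25% called, and the lowest p of each other list. Of the 155 genes that met the rule 81 are given with values, the rest are not reported here, and 32 others were chosen after their values were seen. The fit without stable 1 and vehicle 2, 6 and 7 and 5 further gene lists were added after seeing the data. Promoter windows and gene positions are from RefSeq on GRCm38.p6, the assembly of mm10. Alternatives were DESeq2 1.42.0, limma voom 3.58.1, other scalings and filters, a fit of the 2 groups only, a replicate block, counts summed per title code, and leaving out tumours.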

Additional observations from a re-analysis of the deposited data

Results flagged for a closer look

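For each gene given with values, the highest and lowest tumour of each group of 7 was compared with its nearest neighbour on the log2 CPM scale (Dixon's 95% criterion). Chance flags about 1 in 20 groups, and stable 1 was the tumour in most of those found. Stable 1 was the highest of its group for Cxcl10 (74.1 CPM), Cxcl11 (127 CPM), Trib3 (138 CPM), Kng1 (73.5 CPM), Kng2 (131 CPM), Mageb16 (32 CPM), Dusp6 (535 CPM), Spry1 (44.7 CPM), Nf1 (597 CPM), Ccng2 (253 CPM) and Rb1cc1 (547 CPM). It was the lowest for Krt5 (9.56 CPM), Foxo1 (37.2 CPM), Fasn (127 CPM), Cdkn1b (125 CPM), Bag3 (14.1 CPM), Flt1 (27.2 CPM), Gbf1 (60.4 CPM) and Cnnm3 (17.9 CPM). Stable 5 was the highest of its group for Cnn1 (7.32 CPM).

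Among vehicle tumours, vehicle 3 was the highest for the lipid genes Elovl6 (2300 CPM), Msmo1 (581 CPM) and Hmgcs1 (565 CPM). Vehicle 7 was the highest for Rasa1 (350 CPM) and Ptpn11 (270 CPM) and the lowest for Pot1a (16.3 CPM), Cnnm3 (9.75 CPM) and Cep44 (6.34 CPM). Vehicle 6 was the highest for Zfp874b (17.9 CPM) and the lowest for Egln1 (41.3 CPM), and vehicle 2 was the lowest for Grb7 (6.63 CPM).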

How the results depend on the processing

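Of 1090 genes called higher, 1288 called lower and 2378 in all, the counts moved by more than 1.5 times in the following settings. The cause was not tested. A fit of only the 2 groups called 499, 465 and 964, and asking also for a log2 fold change of 1 or more in size left 431, 602 and 1033. Counts summed per title code gave 210, 382 and 592, leaving out vehicle 2, 6 and 7 gave 455, 392 and 847, and both together gave 75, 97 and 172. With voom and the title code as a random effect 853 were called lower. Over all single tumours left out the range was 690 (without vehicle 2) to 1437 (without stable 1) higher, 776 (without vehicle 6) to 1835 (without stable 1) lower and 1470 to 3272 in all; the counts without stable 1 were within 1.5 times. So were those of DESeq2, which called 1559 higher and 1699 lower.

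The replicate numbers of the titles do not pair the tumours: deviations of same-numbered tumours correlated between -0.25 and 0.358, and for 2 of 7 numbers each tumour matched its own number best. A replicate block gave 640 higher, 611 lower and 1251 in all.

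Of the 113 genes given with values, all kept their direction and side of the threshold with DESeq2 size factors and upper quartile factors, 90 with summed counts and 81 without vehicle 2, 6 and 7 and 50 with both changes (60 lost their call and 2 reversed). Among called genes directions reversed for Myh11 (0.059 without vehicle 2, 6 and 7, 0.38 with summing as well, 0.23 without stable 1 as well), Mylk (0.0055 with summing and 0.076 without stable 1, both without vehicle 2, 6 and 7) and Cxcl10 (-0.15 with voom quality weights). Genes never called also changed sign, such as Dusp6 (0.63, and -0.17 without stable 1), Krt8 (0.047, and -0.49 without stable 1), Nf1 (-0.033, and 0.31 without vehicle 2, 6 and 7) and Mki67 (0.53, and -0.31 with both changes). Depth limited genes below the filter, which were not tested.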
